A study of Mus musculus with 11 samples.

Results

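The mouse Zfp genes, named for zinc finger protein, were followed gene by gene in striatal cells after knockdown of NF-YA and NF-YC. They are the 38 genes whose symbol starts with Zfp among the 1767 genes of the deposited RNA-seq table, and all 38 are described here. Cells were sorted from striata of wild-type male C57BL/6 mice that had received, at 6 weeks of age and in both hemispheres, an AAV vector expressing EmGFP from the CAG promoter, a promoter that is active in many cell types. In the 6 NT2 samples the vector also carried a non-targeting miRNA, and in the 5 YAYC samples it carried the knockdown miRNAs YA-8 and YC-2. EmGFP-positive, propidium iodide-negative cells were sorted 3 weeks after the injection. The sources used here do not state that each sample came from a separate mouse, so the errors below measure the spread between samples, which may be in part technical. The table lists only genes that the study had already selected, since all 1767 have a deposited p-value under 0.05 for the same contrast. A difference between the groups was therefore a condition for being listed, and all fold changes, calls and overlaps of the Zfp genes below are descriptions without a test. For its final list the paper also excluded genes with a highest count under 200. It further removed genes expressed mainly in non-neuronal cells, because glial genes were partly included. Of the 1767 genes, 439 stay under 200, among them Zfp296, Zfp366, Zfp712, Zfp93, Zfp94, Zfp599 and Zfp804a. Whether the other members are in the final list was not checked.

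Most Zfp proteins carry C2H2 zinc fingers, small DNA-binding units that are often repeated in tandem. Many of them also carry a KRAB domain, which recruits the co-repressor Trim28 and heterochromatin enzymes, and their genes often lie in clusters that arose by tandem duplication. The CCCH-type members Zfp36l1 and Zfp36l2 are of another kind and bind AU-rich elements in mRNAs, which promotes mRNA decay. NF-Y is a trimer of NF-YA, NF-YB and NF-YC that binds the CCAAT box, typically close to the transcription start site.

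In coding sequences of GENCODE M21, 36 of the 38 members held at least 1 C2H2 finger by a sequence pattern, with a median of 10 fingers and a range from 1 in Zfp804a to 33 in Zfp619. The remaining 2, Zfp36l1 and Zfp36l2, held CCCH fingers. A pattern for the KRAB A box was found in 14 members, which does not say that the others lack the domain.

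The promoter sequences are shown for members that the results below return to. RefSeq promoter windows of 300 bases, 250 before and 50 after the start of the gene (GRCm38.p6), could be matched for 31 members with 36 windows. CCAAT was searched for on both strands and found for 13 of the 31 (41.9%), beside 41.1% of all 27025 genes of the promoter table and 44.3% of the 1352 listed genes that were matched. All 13 were members with lower counts in YAYC, as were 29 of the 31 matched members. Among those 29 the share with a match was 44.8%, so nothing is read from the direction of the 13. Each of the 13 kept a match in the bases before the start alone. The windows are given 5′ to 3′ in the direction of the gene, with the match in capitals (ATTGG where it lies on the other strand). Zfp672 and Zfp579 are the 2 members whose groups did not overlap, Zfp955b had the most matches, Zfp26 had both orientations side by side, and Zfp119a and Zfp959 are neighbours with similar windows.
Zfp672, chr11:58323316-58323615, minus strand: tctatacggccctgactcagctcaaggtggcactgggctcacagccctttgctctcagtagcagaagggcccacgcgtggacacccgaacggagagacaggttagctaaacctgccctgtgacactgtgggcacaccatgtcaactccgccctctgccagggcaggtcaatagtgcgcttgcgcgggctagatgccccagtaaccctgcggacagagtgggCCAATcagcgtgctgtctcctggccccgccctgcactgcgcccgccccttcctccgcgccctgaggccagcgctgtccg
Zfp579, chr7:4996052-4996351, minus strand: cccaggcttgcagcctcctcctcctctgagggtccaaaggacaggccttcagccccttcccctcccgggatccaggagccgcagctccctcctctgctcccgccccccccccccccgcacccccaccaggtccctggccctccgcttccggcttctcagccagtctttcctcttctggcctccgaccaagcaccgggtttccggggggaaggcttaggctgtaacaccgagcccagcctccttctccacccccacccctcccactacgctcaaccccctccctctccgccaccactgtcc
Zfp955b, chr17:33289294-33289593, plus strand: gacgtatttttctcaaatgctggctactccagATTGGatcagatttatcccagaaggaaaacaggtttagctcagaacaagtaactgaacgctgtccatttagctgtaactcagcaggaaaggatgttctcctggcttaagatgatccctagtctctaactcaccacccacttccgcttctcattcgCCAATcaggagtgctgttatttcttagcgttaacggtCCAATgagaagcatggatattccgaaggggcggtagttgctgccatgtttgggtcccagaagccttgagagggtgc
Zfp26, chr9:20460111-20460410, minus strand: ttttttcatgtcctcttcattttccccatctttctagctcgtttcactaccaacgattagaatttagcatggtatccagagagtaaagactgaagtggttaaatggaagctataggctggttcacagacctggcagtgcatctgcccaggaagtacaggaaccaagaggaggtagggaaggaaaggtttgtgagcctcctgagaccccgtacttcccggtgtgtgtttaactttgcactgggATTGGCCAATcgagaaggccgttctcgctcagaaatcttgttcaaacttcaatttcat
Zfp119a, chr17:55878904-55879203, minus strand: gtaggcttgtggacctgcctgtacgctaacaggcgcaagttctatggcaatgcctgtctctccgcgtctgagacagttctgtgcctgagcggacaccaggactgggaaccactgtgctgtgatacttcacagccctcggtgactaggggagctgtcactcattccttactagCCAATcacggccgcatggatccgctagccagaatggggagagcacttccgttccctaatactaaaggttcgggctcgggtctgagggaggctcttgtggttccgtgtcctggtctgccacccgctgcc
Zfp959, chr17:55891843-55892142, plus strand: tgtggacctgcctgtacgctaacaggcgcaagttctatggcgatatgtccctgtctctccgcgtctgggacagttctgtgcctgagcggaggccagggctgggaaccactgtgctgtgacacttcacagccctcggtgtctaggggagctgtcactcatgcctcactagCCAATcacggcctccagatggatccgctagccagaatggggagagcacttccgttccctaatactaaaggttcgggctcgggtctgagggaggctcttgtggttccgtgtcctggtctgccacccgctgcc

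The first match began 29 bases before the start in the Zfp672 window, at 78 bases in Zfp119a and at 81 bases in Zfp959, and Zfp955b had matches at 218, 63 and 26 bases. A second window of Zfp672 held a match at 118 bases, and another window held none. The Zfp579 window held none, and neither did those of Zfp804a, Zfp296, Zfp235, Zfp93 and Zfp94. The other members with a match were Zfp110, Zfp619, Zfp617, Zfp287, Zfp36l1, Zfp322a, Zfp597 and Zfp760. The longer form CCAATCA, searched for on both strands, chosen after the sequences were seen and contained in the CCAAT matches, was found for 6 of the 31 members (19.4%), beside 9% of all genes and 12% of the matched listed genes. These were Zfp119a, Zfp597, Zfp617, Zfp672, Zfp955b and Zfp959. Zfp366, Zfp36l2, Zfp40, Zfp438, Zfp599, Zfp654 and Zfp870 were not matched.

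The estimated counts of the 1767 listed genes added up to 1581757 to 3141324 per NT2 sample and to 1954949 to 3010153 per YAYC sample. The total depth per library is not given by the table, and precision is limited by the counts of each gene. Normalized counts below are estimated counts divided by the authors' scaling factor, which ranged from 0.66 to 1.27 over the 11 samples. In pairwise chi-square comparisons within a group, no 2 samples were as close as sampling noise, with values from 20.5 to 161 per degree of freedom over 25 pairs. Of the targeted genes, Nfyc had normalized counts between 804 and 1178 in the NT2 samples, with a median of 948, and of 569, 696, 792, 845 and 927 in the YAYC samples. The Nfyc groups overlapped, with a log2 fold change of -0.32 (SE 0.14), and Nfyc was not called. Nfya was looked for and was not among the listed genes, and Nfyb was not analysed here. In the study, qRT-PCR of the sorted cells showed reduced NF-YC, whereas the reduction of NF-YA was not significant.

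The Zfp genes were mostly lower in the knockdown cells. Of the 38 members, 35 (92.1%) had a negative log2 fold change of YAYC over NT2, beside 57.9% of all listed genes, and 3 had a positive one, beside 42.1%. At an adjusted p-value under 0.05 over all listed genes, from the quasi-likelihood test of edgeR with adjustment after Benjamini and Hochberg, 27 members (71.1%) were called lower, beside 47.3% of all listed genes, and 2 were called higher, beside 32.2%. The members called higher were Zfp579 and Zfp804a, and the 9 that were not called were Zfp296, Zfp93, Zfp94, Zfp959, Zfp212, Zfp322a, Zfp36l1, Zfp36l2 and Zfp599. Because the table was selected on this contrast, nothing is read from these shares. The median log2 fold change was -0.43 over the members and -0.27 over all listed genes. Among genes with lower counts alone it was -0.45 for the 35 members and -0.51 for the 1023 listed genes.

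**Figure D1:**
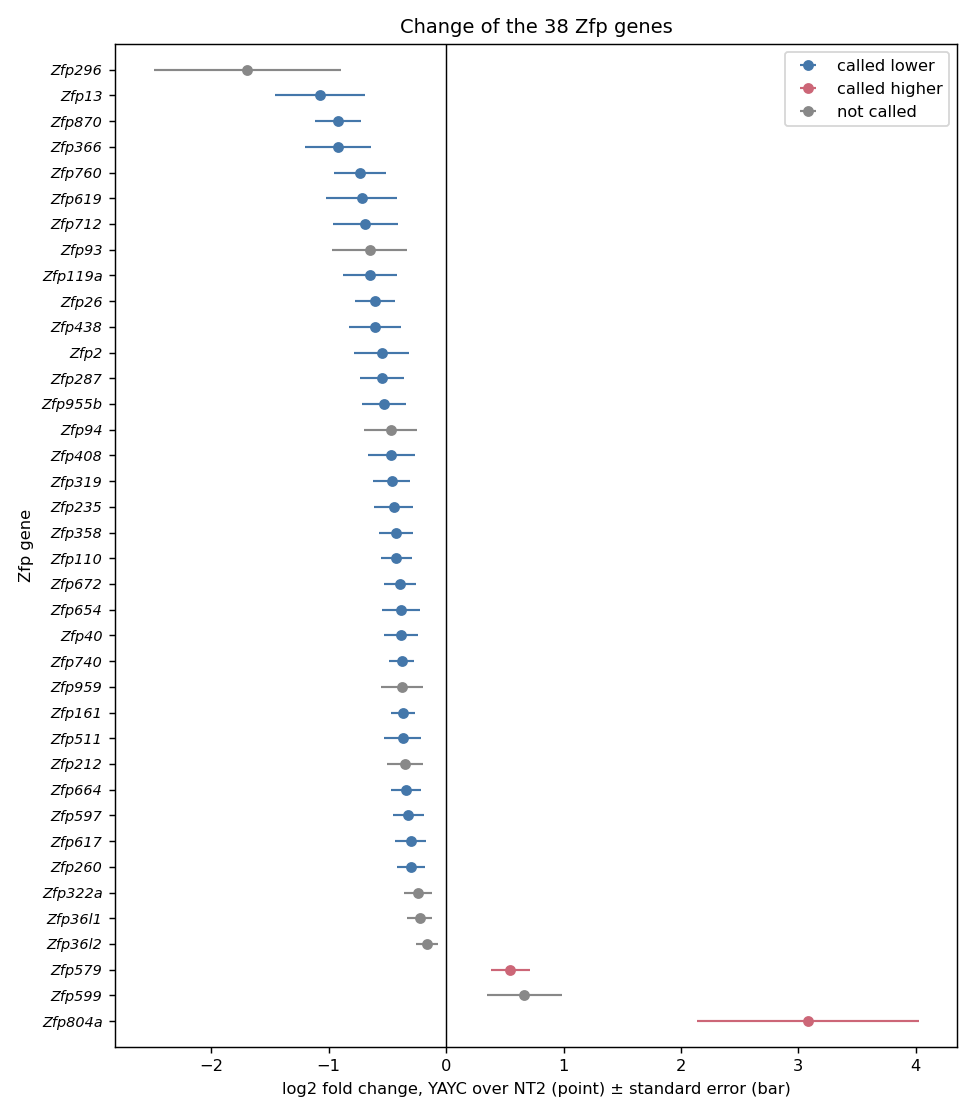
Log2 fold change of YAYC over NT2 on the x axis for the 38 Zfp genes on the y axis, with the standard error as a bar and the call at an adjusted p-value under 0.05 as colour. The 35 lower members run from -1.69 in Zfp296 to -0.17 in Zfp36l2, and the 3 higher members are Zfp579, Zfp599 and Zfp804a.

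The number of calls depended on the scaling and on single samples, whereas the sign of the log2 fold change did not for any member that was fitted. With TMM factors, 6 members were called lower and 2 higher, and the log2 fold changes of all listed genes shifted upward by a median of 0.13. Over all 1767 listed genes, 1405 were called with the authors' factors, 59.5% of them lower. TMM factors gave 1066 calls over all listed genes, 35.4% of them lower. Leaving out 1 sample gave between 12 and 24 members called lower. The count was 14, 14, 16 and 13 without NT2 samples 5, 7, 9 and 21, and 14, 12, 12 and 14 without YAYC samples 4, 6, 8 and 10. Calls over all listed genes fell too when 1 sample was left out, to between 848 and 1358. Of these, 57.4% to 61.2% were lower. The share of calls that the members lost was not compared with that of all listed genes. Of 29 glial markers searched for, 7 were in the table. They were 5 of 10 astrocyte markers, 1 of 10 oligodendrocyte markers (Ugt8a) and 1 of 9 microglia markers (P2ry12). All 7 had lower counts in YAYC, with a summed normalized count from 47921 to 122982 in NT2 and from 38855 to 53693 in YAYC. The score made from them below is thus mostly of astrocyte markers, and the unlisted markers could not enter it. Of 9 vascular markers, 6 were in the table and had lower counts in YAYC, with a sum from 6013 to 10429 in NT2 and from 3786 to 6388 in YAYC. With the score of the 7 glial markers as a covariate, edgeR called no member in either direction (14 had an unadjusted p-value under 0.05, 12 of them lower), and 34 of all listed genes were called. These 7 markers were listed because they differed on the same contrast, so their score differs between the groups by selection. The loss of calls with this covariate therefore cannot decide the part of the markers. The 38 log2 fold changes kept their sign, but 18 moved by over 1.5 times, 14 of them toward 0 and 4 away from it. Among these, Zfp438 went from -0.61 to -0.12, Zfp617 from -0.30 to -0.02, Zfp40 from -0.39 to -0.08, Zfp955b from -0.53 to -0.18, Zfp712 from -0.69 to -0.24 and Zfp804a from 3.08 to 6.24. With the sample number series as a covariate, 23 members were called lower and no log2 fold change moved by over 1.5 times. In these sorted but bulk samples, fewer cells of a type and less RNA per cell cannot be told apart. None of the 8 neuronal or 14 striatal neuron markers was in the table, so the label of the cells was not checked against them.

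The largest differences on the lower side were seen in weakly expressed members. Zfp296 had normalized counts between 3.22 and 38.2 in the NT2 samples, with a median of 16.5, and of 1.17, 1.57, 1.68, 4.97 and 22.5 in the YAYC samples. Zfp296 is known for its role in pluripotent cells, and 3 YAYC samples lay below all NT2 samples. Its mean was 19.6 ± 14.1 (SD, n = 6) in NT2 and 6.37 ± 9.13 (SD, n = 5) in YAYC, with a log2 fold change of -1.69 (SE 0.80) that was -3.03 without YAYC sample 4. Zfp13 had normalized counts between 70.2 and 226 in the NT2 samples, with a median of 148, and of 28.1, 40.3, 88.7, 95.5 and 104 in the YAYC samples. The mean of Zfp13 was 150.1 ± 58.1 (SD, n = 6) in NT2 and 71.3 ± 34.6 (SD, n = 5) in YAYC, a log2 fold change of -1.07 (SE 0.39), and 1 NT2 sample lay within the YAYC range.

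Zfp870 had normalized counts between 193 and 311 in the NT2 samples, with a median of 281, and of 114, 124, 124, 145 and 213 in the YAYC samples. A single NT2 sample, at 193, lay below the highest YAYC sample, and the other 5 were above all YAYC samples. The mean of Zfp870 was 272 ± 42.3 (SD, n = 6) in NT2 and 144 ± 40.1 (SD, n = 5) in YAYC, a log2 fold change of -0.92 (SE 0.20). Zfp366 had normalized counts between 50.5 and 113 in the NT2 samples, with a median of 86.1, and of 31.8, 35.3, 44.0, 51.5 and 53.2 in the YAYC samples. Zfp366, known as DC-SCRIPT in dendritic cells, had a mean of 81.6 ± 25.6 (SD, n = 6) in NT2 and 43.2 ± 9.52 (SD, n = 5) in YAYC and a log2 fold change of -0.92 (SE 0.28), and 2 NT2 samples lay within the YAYC range.

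Among members with a mean of at least 200 normalized counts, Zfp2, Zfp760 and Zfp438 varied most between samples of a group. Zfp2 had normalized counts between 288 and 492 in the NT2 samples, with a median of 359.8, and of 147, 183, 282, 294 and 363 in the YAYC samples. Its pooled within-group SD on the log2 scale was 0.43, and 1 YAYC sample lay above the NT2 median. Zfp760 had normalized counts between 313 and 529 in the NT2 samples, with a median of 358, and of 145, 169, 239.9, 268 and 322 in the YAYC samples. The log2 fold change of Zfp760 was -0.73 (SE 0.22) with a within-group SD of 0.38, and 4 YAYC samples lay below all NT2 samples. Zfp438 had normalized counts between 169 and 376 in the NT2 samples, with a median of 247, and of 135, 155, 167, 177 and 197 in the YAYC samples. For Zfp438, with a log2 fold change of -0.61 (SE 0.23), the spread was mainly between the NT2 samples, with a coefficient of variation of 32.7% in NT2 and 14.0% in YAYC.

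The most abundant members were Zfp36l1, Zfp36l2 and Zfp740. Zfp36l1 had normalized counts between 3039 and 4126 in the NT2 samples, with a median of 3743, and of 2906, 2932, 3105, 3208 and 3437 in the YAYC samples. Zfp36l2 had normalized counts between 3219 and 3981 in the NT2 samples, with a median of 3808, and of 3045, 3059, 3125, 3560.1 and 3617 in the YAYC samples. These mRNA decay factors had log2 fold changes of -0.22 (SE 0.11) and -0.17 (SE 0.09), neither was called, and for both 2 NT2 samples lay within the YAYC range. Zfp740 had normalized counts between 2061 and 2991 in the NT2 samples, with a median of 2483, and of 1767, 1934, 1940.4, 1943 and 2077 in the YAYC samples. For Zfp740, 4 of the 5 YAYC samples lay below all NT2 samples, and its log2 fold change was -0.38 (SE 0.10). With TMM factors the log2 fold change of Zfp36l2 was -0.04.

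The members with the smallest spread were Zfp36l2, Zfp161 and Zfp740. Zfp161 had normalized counts between 725 and 952 in the NT2 samples, with a median of 826, and of 575, 625, 627, 647 and 738 in the YAYC samples. Zfp161, named Zbtb14 in RefSeq and carrying a BTB domain beside its fingers, had a mean of 829 ± 74.4 (SD, n = 6) in NT2 and 642 ± 59.8 (SD, n = 5) in YAYC. Its within-group SD was 0.13 on the log2 scale, against a log2 fold change of -0.37 (SE 0.10), and 4 YAYC samples lay below all NT2 samples. Zfp672 had normalized counts between 464 and 688 in the NT2 samples, with a median of 535, and of 309.8, 421, 439.8, 455 and 457 in the YAYC samples. Zfp672 was the only member for which every YAYC sample was below every NT2 sample, beside 6.11% of all listed genes, and its highest YAYC and lowest NT2 counts were only 457 and 464. Its log2 fold change was -0.39 (SE 0.14).

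Zfp579, Zfp599 and Zfp804a had higher counts in YAYC. Zfp579 had normalized counts between 269 and 503 in the NT2 samples, with a median of 451, and of 526, 542, 599.7, 730.1 and 761 in the YAYC samples. Every YAYC sample was above every NT2 sample for Zfp579, beside 6.9% of all listed genes, with means of 432 ± 86.1 (SD, n = 6) in NT2 and 632 ± 108 (SD, n = 5) in YAYC and a log2 fold change of 0.55 (SE 0.17). Zfp599 had normalized counts between 11.7 and 33.3 in the NT2 samples, with a median of 22.5, and of 27.5, 31.7, 32.2, 36.1 and 54.2 in the YAYC samples. The Zfp599 counts were low and overlapped, with a log2 fold change of 0.67 (SE 0.32) that was not called, and its log2 fold change was 0.11 with the glial score as a covariate.

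Zfp804a had normalized counts between 0 and 8.40 in the NT2 samples, with a median of 1.61, and of 2.98, 5.86, 15.4, 25.1 and 71.4 in the YAYC samples. Zfp804a, the mouse counterpart of a human gene associated with schizophrenia, was listed at 0 in 3 of the 6 NT2 samples, and 3 YAYC samples were above all NT2 samples. Its fitted log2 fold change of 3.08 (SE 0.95) rested on few reads and on YAYC sample 10, without which it was 2.12 and the gene was no longer called. Of the 8 neural Zfp genes searched for by name, it was the only one in the table.

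**Figure D2:**
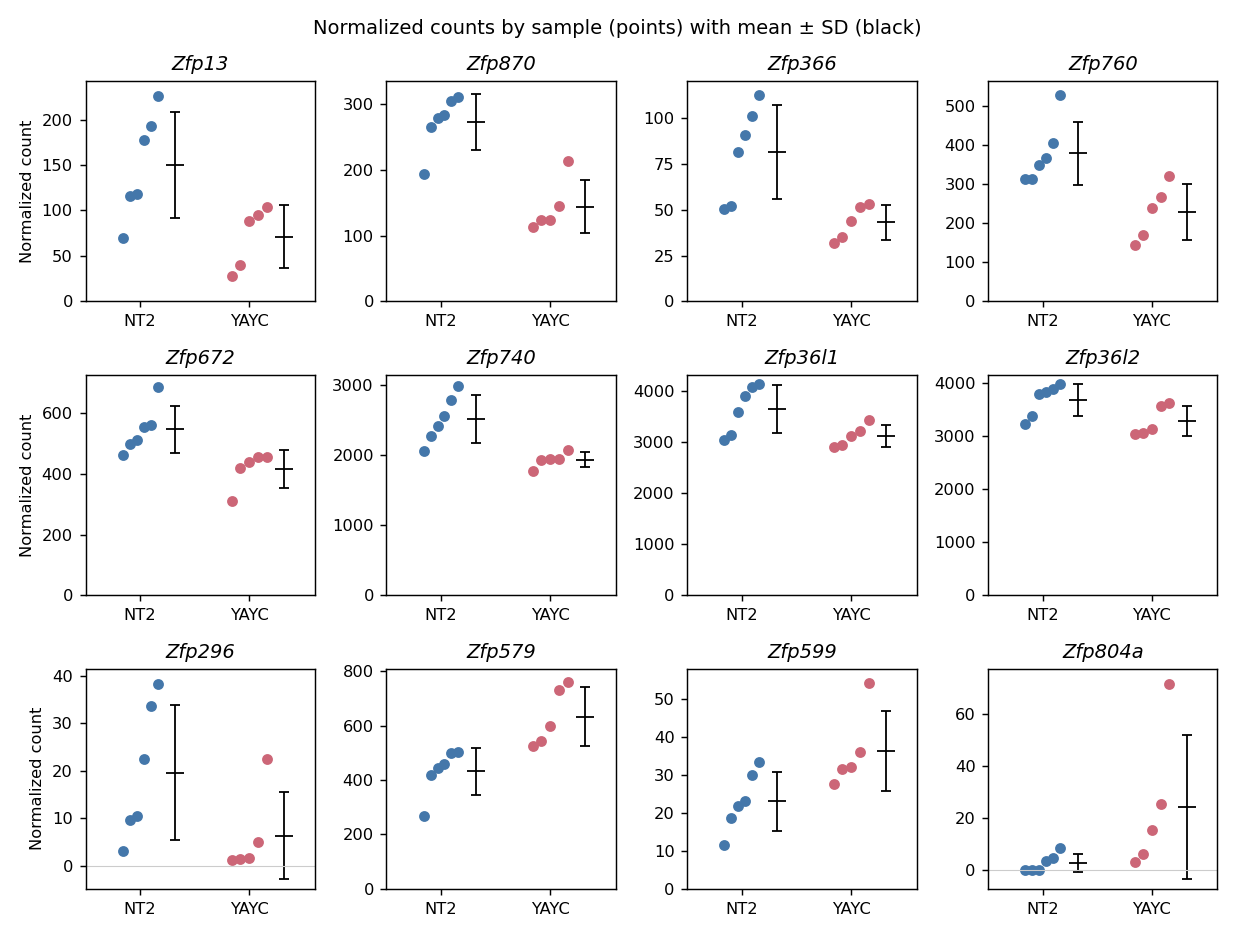
Normalized count on a linear y axis for each NT2 (blue) and YAYC (red) sample of 12 Zfp genes, with the mean ± SD in black, the points being spread sideways in order of value only. The groups are separate for Zfp672 and Zfp579, and at least 1 sample overlaps in the other 10 panels.

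Levels are compared per length. Per kilobase of the longest transcript, the mean NT2 level was highest for Zfp36l1 (1219 normalized counts per kilobase), Zfp36l2 (1043) and Zfp740 (592), followed by Zfp664 (356), Zfp260 (315) and Zfp110 (310.5). It was lowest for Zfp804a (0.580), Zfp599 (6.47), Zfp366 (12.8) and Zfp296 (12.8). Among lower members, the median log2 fold change was -0.78 for the 4 with a mean count under 100, -0.70 for the 4 from 100 to 200, -0.46 for the 16 from 200 to 500, -0.41 for the 6 from 500 to 1000 and -0.30 for the 5 above 1000. All listed genes with lower counts showed the same order over these levels, with medians of -1.29, -0.81, -0.61, -0.44 and -0.36. The median standard error of the lower members was 0.30 under a mean count of 100 and 0.11 above 1000. Since the table was selected on the p-value, a gene with a large standard error needed a larger difference to be listed. Nothing is therefore read from the order over levels.

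**Figure D3:**
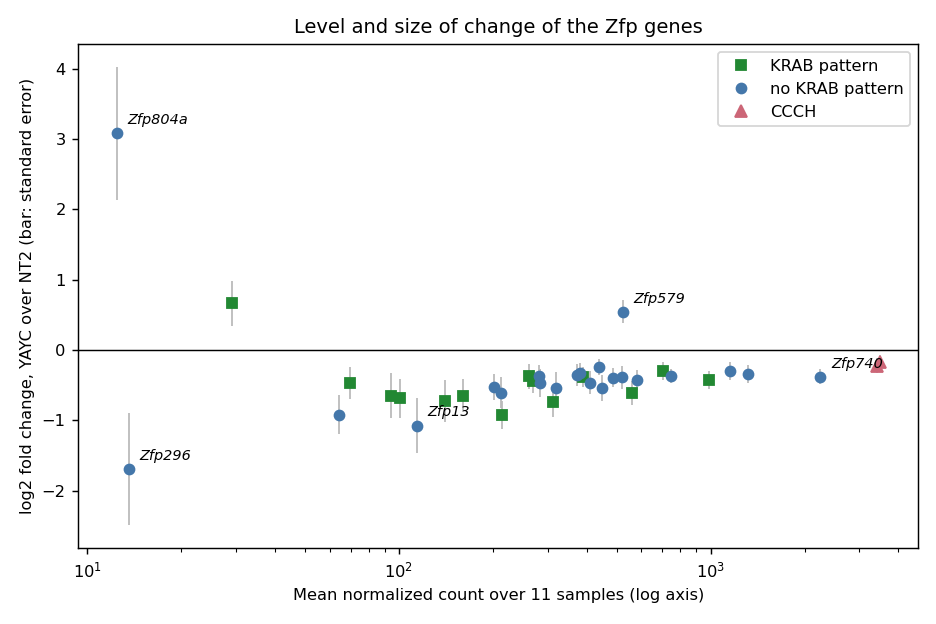
Log2 fold change of YAYC over NT2 on the y axis, with its standard error, against the mean normalized count over 11 samples on a log x axis for the 38 Zfp genes, marked by the KRAB pattern, no KRAB pattern or CCCH fingers. The differences are widest at the left, at Zfp804a and Zfp296, and narrowest at the right, where the 2 CCCH members lie. Selection of the table on the p-value favours this shape, so nothing is read from it.

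The spread between samples of a group is given beside that of the whole table. The median coefficient of variation of the 38 members was 18.0% in NT2 and 17.4% in YAYC, beside 23.8% and 18.8% over all listed genes, which include more genes with few counts. For 16 lower members from 200 to 500 counts it was 17.8% in NT2 and 16.1% in YAYC, beside 21.7% and 22.4% for 171 lower listed genes of that level. Of the 35 lower members, 1 had no NT2 sample at or below the highest YAYC sample, 13 had 1, 13 had 2, 5 had 3 and 3 had 4. The single NT2 samples behind these overlaps differed, from 7 members each for NT2 samples 5 and 9 to 17 for sample 21. The number of members without overlap was 6 without any one of NT2 samples 3, 9 or 21 or YAYC samples 8 or 22, in place of 2, and 1 with TMM factors.

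Other members with lower counts lay between these examples. Zfp619 (-0.72), Zfp712 (-0.69), Zfp26 (-0.61), Zfp287 (-0.54) and Zfp408 (-0.47) were called lower at log2 fold changes below the members' median, and so were Zfp319 (-0.46) and Zfp358 (-0.43). Zfp110, which encodes a partner of the neurotrophin receptor p75, was lower at 1115 ± 126 (SD, n = 6) in NT2 and 831 ± 148 (SD, n = 5) in YAYC, a log2 fold change of -0.42 (SE 0.13). Zfp654 (-0.39), Zfp511 (-0.37), Zfp664 (-0.34), Zfp597 (-0.32), Zfp617 (-0.30) and Zfp260 (-0.30) were called lower with smaller log2 fold changes. Without NT2 sample 3, the log2 fold change of Zfp654 was -0.25. Zfp212 (-0.35) and Zfp322a (-0.24) were not called.

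By coding sequence, the 14 members with the KRAB pattern had a median log2 fold change of -0.54, with 13 lower and 10 called lower. The 22 C2H2 members without it had a median of -0.39, with 20 lower and 17 called lower. Of all listed genes, 57.9% were lower and 47.3% were called lower, and nothing is read from the counts of the classes. The mean NT2 counts of these classes, not adjusted for length, had medians of 282 and 425, so level and class moved together and were not separated. For 13 of the 14 KRAB members at least 1 estimated count was not a whole number (tolerance 0.001), and 68.2% of their values were fractional, beside 33.5% of the values of the other C2H2 members, 0 for the CCCH members and 47.1% over all listed genes. How the fractional values arose is not given in the sources used here, and the counts of members with a close copy are uncertain where reads could be shared. Values were fractional in all 11 samples for 9 members, and whole in all 11 for 13.

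The members lay on 13 chromosomes, and 18 of the 38 (47.4%) lay on chromosomes 7 and 17, with 9 on each, beside 12.6% of all listed genes. On chromosome 7, 8 of the 9 members were lower, with a median log2 fold change of -0.45, whereas the other 127 listed genes there had a median of 0.21 and 47.2% were lower. On chromosome 17 all 9 members were lower, with a median of -0.53, beside a median of 0.26 and 47.4% lower among the other 78 listed genes. Over all chromosomes, 35 of the 38 members were lower, with a median of -0.43, so the direction was not particular to chromosomes 7 and 17. The position of a member had no part in its selection, but its direction was not tested, as above. Of the members, 9 had another member whose start was under 1 Mb away, in 5 neighbouring pairs, and all 9 had lower counts. Their median log2 fold change was -0.53, beside -0.39 for the 29 others. Those others include Zfp579, Zfp599 and Zfp804a, which were higher, and the abundant Zfp36l1, Zfp36l2 and Zfp740. Level and position were not separated. Only 1 other listed gene, Cyp4f13, started between 2 paired members. Coordinates are those of the deposited table, for which the submitters' processing notes name mm9.

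On chromosome 7, Zfp235 (chr7:24919182-24928260, plus strand), Zfp93 (chr7:25040852-25062813, plus strand) and Zfp94 (chr7:25086723-25101685, minus strand) followed each other, 122 kb and 45.9 kb apart by their starts. Zfp235 had normalized counts between 249 and 430.3 in the NT2 samples, with a median of 296, and of 201, 203, 209.7, 229 and 281 in the YAYC samples. Zfp93 had normalized counts between 79.3 and 161 in the NT2 samples, with a median of 103, and of 41.6, 46.6, 56.2, 85.0 and 127 in the YAYC samples. Zfp94 had normalized counts between 53.0 and 96.8 in the NT2 samples, with a median of 80.9, and of 39.8, 57.3, 59.7, 63.0 and 67.4 in the YAYC samples. A single YAYC sample of Zfp93, sample 22, lay above 4 NT2 samples, and the log2 fold changes were -0.45 (SE 0.17), -0.65 (SE 0.32) and -0.47 (SE 0.23). The coding sequences of Zfp235 and Zfp93 were 81.2% identical over 643 aligned residues, the closest pair among all members, and their counts were fractional in 10 and 11 of the 11 samples. Their promoter windows were 50.9% identical.

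On chromosome 17, Zfp119a (chr17:56004192-56084329, minus strand) spans Zfp959 (chr17:56031516-56038353, plus strand) in the table's coordinates. The kit used for the cDNA does not mark strand, so reads from any part that both genes share cannot be told apart by strand. In the RefSeq windows of GRCm38.p6 the starts of both genes lie apart and point away from each other, so the overlap is given by the table's interval only. Zfp119a had normalized counts between 168 and 227 in the NT2 samples, with a median of 190.1, and of 75.2, 83.2, 120.2, 165 and 170.1 in the YAYC samples. Zfp959 had normalized counts between 225 and 328 in the NT2 samples, with a median of 299, and of 139, 226, 244, 245 and 273 in the YAYC samples. For both, 1 NT2 sample lay at or below the highest YAYC sample, and the log2 fold changes were -0.65 (SE 0.23) and -0.37 (SE 0.18). Without YAYC sample 22, that of Zfp959 was -0.24. Their coding sequences were 75.3% identical over 538 aligned residues. The promoter windows printed above were 96.2% identical over 293 aligned bases, including the CCAAT match, and lay 12939 bases apart on opposite strands in GRCm38.p6.

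The 2 other pairs on chromosome 17 were farther apart. Zfp870 (chr17:33016166-33028548, minus strand) and Zfp955b (chr17:33426489-33441634, plus strand) started 410.3 kb apart, with Cyp4f13 between them at a log2 fold change of -0.25 (SE 0.12). Zfp955b had normalized counts between 150.0 and 297 in the NT2 samples, with a median of 237, and of 139, 140.4, 157, 178 and 199 in the YAYC samples. The log2 fold change of Zfp955b was -0.53 (SE 0.19), and 1 NT2 sample lay within the YAYC range. Zfp40 (chr17:23310836-23330195, minus strand) and Zfp13 (chr17:23712819-23736454, minus strand) started 402 kb apart. Zfp40 had normalized counts between 322 and 548 in the NT2 samples, with a median of 437, and of 275, 319.7, 329, 364 and 379 in the YAYC samples. The log2 fold change of Zfp40 was -0.39 (SE 0.14), beside -1.07 (SE 0.39) for Zfp13.

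**Figure D4:**
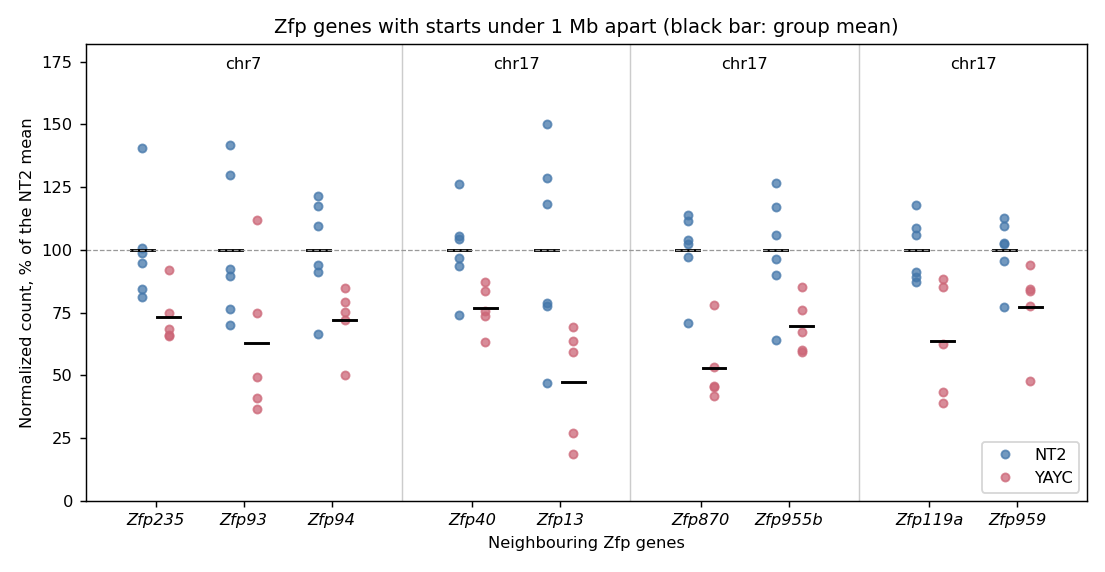
Normalized count of each NT2 (blue) and YAYC (red) sample on the y axis, as a percentage of the NT2 mean of the gene, for 9 Zfp genes in 4 groups of neighbours on the x axis, with black bars for the group means. The YAYC means lie below 100% for all 9 genes, and single samples overlap in each.

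Over the samples, the mean centred log2 count of the 35 lower members was between 0.17 and 0.33 in NT2 and between -0.48 and -0.19 in YAYC. That the groups are apart here follows from the choice of the members. The glial marker score, made in the same way from the 7 listed markers, ran from -0.55 to 1.29 in NT2 and from -1.03 to -0.13 in YAYC, and NT2 sample 3 lay within the YAYC range of this score. The part of the markers in the Zfp values was not tested. The sample numbers fall into a series from 3 to 10, with 4 samples per group, and a series from 21 to 23, with 2 NT2 samples and 1 YAYC sample. All 35 lower members were lower within the first series, with a median log2 difference of -0.49, and 34 within the second, with a median of -0.33. The exception was Zfp93, at 0.43 in the second series. These 35 members were chosen by their sign over the same samples. Their direction within each series therefore follows largely from that choice and is no replication.

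**Figure D5:**
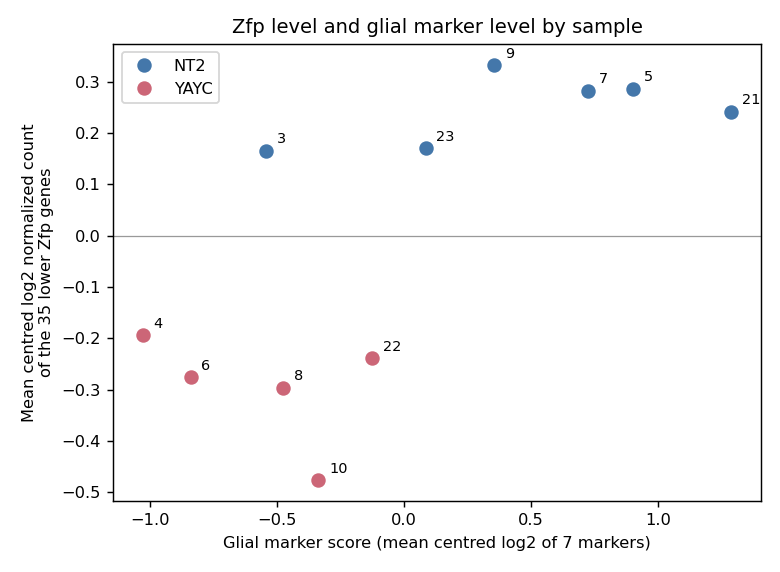
Mean centred log2 normalized count of the 35 lower Zfp genes on the y axis against the glial marker score on the x axis for 6 NT2 (blue) and 5 YAYC (red) samples, labelled by sample number. The score ranges overlap on the x axis, with NT2 sample 3 at -0.55, while the groups are apart on the y axis by the choice of the genes.

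Related genes were counted from lists. Of 26 KRAB co-repressor and heterochromatin genes, only Pias1, which encodes a SUMO ligase, was in the table, with a log2 fold change of -0.21 (SE 0.09), and it was called lower. Of other zinc finger families recognised by their symbols, 16 genes were listed, with 9 called lower, beside 47.3% of all listed genes, 4 called higher, beside 32.2%, and a median log2 fold change of -0.34. Those called lower included Klf11 (-0.41, SE 0.11), Zmym2 (-0.40, SE 0.12) and Zbtb44 (-0.26, SE 0.10), and those called higher included Zbtb7b (0.36, SE 0.16) and Zbtb42 (1.30, SE 0.48).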

How the data were processed

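RNA-seq of cells sorted from mouse striata was analysed in 6 NT2 and 5 YAYC samples, grouped by their titles. The authors deposited estimated counts per gene, partly fractional and not normalized (52.9% whole, tolerance 0.001), made with Strand NGS, and the submitters' notes name mm9. The aligner and versions are not given in the sources used here. The authors also deposited log2 values, scaled per sample and centred per gene, and a p-value, used here only to check the selection of the table. Their deposited fold change columns were not used. The authors' scaling factors were recovered from the log2 values of 1247 genes with over 50 counts in every sample. Rounded counts of all 1767 listed genes were fitted with edgeR 4.0.16 (R 4.3.3, glmQLFit and glmQLFTest) with these factors and group as the only term. Standard errors are the absolute log2 fold change over the square root of F. For spreads and scores, log2 values were taken after adding 0.5 to the normalized count. The fit was tested on simulated data. The alternatives were TMM or DESeq2 factors, DESeq2 1.42.0, filters on low counts (a highest count of at least 200, or filterByExpr), the sample number series or the glial score as a covariate, and leaving out each sample. Calls used an adjusted p-value under 0.05 over all listed genes.

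Members, gene lists and tests were chosen with earlier results of these data known. Sample values are given for the 4 members with the largest log2 fold changes on the lower side and all 3 on the higher side, the 3 most abundant, neighbours under 1 Mb apart, the 3 most and 3 least variable with a mean of at least 200, CCCH and neural members, and Zfp672, added after its values were seen. Fingers were counted on translated GENCODE M21 coding sequences (2 of 38 genes matched by symbol, Biopython 1.88 for alignments), and promoters are RefSeq windows of GRCm38.p6, whose coordinates are not those of the table.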

Additional observations from a re-analysis of the deposited data

Results flagged for a closer look

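Of 76 combinations of a Zfp gene and a group, 4 had 1 sample whose gap to the nearest other sample, as a share of the whole range of log2 values, was above the limit for a single outlying value. Chance flags about 1 in 20 such groups. Zfp870 in NT2 had sample 21 lowest, at 193 normalized counts (gap 0.661 of the range). Zfp672 in YAYC had sample 8 lowest, at 309.8 normalized counts (gap 0.786). Zfp959 in YAYC had sample 22 lowest, at 139 normalized counts (gap 0.72). Zfp579 in NT2 had sample 3 lowest, at 269 normalized counts (gap 0.703).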

How the results depend on the processing

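No paired analysis was possible because the 2 groups share no sample number. All 38 members kept their sign wherever they were fitted. With the glial score, 10 of the 38 log2 fold changes moved by more than the spread between samples, with TMM factors 2 did, and none did under the other 16 alternatives. That limit is the spread of single samples, which leaving out 1 sample can hardly exceed, so stability is not read from it. Zfp296 went from -1.69 to -3.03 without YAYC sample 4 and was not counted as moved. Members called lower were 27, against 6 with TMM factors, 7 with DESeq2 factors, 10 with DESeq2 and 0 with the glial score, where the cause was not tested. They were 23 with the sample number series as a covariate and 12 to 24 when 1 sample was left out. Members called higher were 2, against 1 with a highest count of at least 200 or with filterByExpr, which leave fewer genes, 0 with the glial score, and 1 to 3 when 1 sample was left out. Positive log2 fold changes were 3, and 1 with a highest count of at least 200, which leaves 31 members. Members without overlap were 2, against 1 with TMM or DESeq2 factors and 2 to 6 when 1 sample was left out. Over all listed genes, 1405 were called (59.5% of them lower), 1066 with TMM factors (35.4%), 1098 with DESeq2 factors (37.6%) and 1138 with DESeq2 (40.3%). They were 1223 with the sample number series (59.4%), 34 with the glial score (20.6%) and 848 to 1358 when 1 sample was left out. Lower calls thus became fewer over all listed genes too with TMM or DESeq2 scaling, and nothing is read from the members' counts. Total depth is not in the files.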
